A study of Rattus norvegicus with 6 samples.

Results

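The nuclear genes of the respiratory chain and of ATP synthase were followed in neonatal rat ventricular cardiomyocytes, heart muscle cells taken from newborn rats and kept in culture. Members were the protein-coding genes outside mitochondrial DNA whose symbols begin with Nduf, Sdhaf, Uqcr, Atp5 or Cox and a digit, together with Sdha, Sdhb, Sdhc, Sdhd, Cyc1 and Cycs. The rule used names and no measured value, and it took 110 of the 34510 genes in the deposited table, with 108 distinct symbols. Of these, 87 encode structural subunits, 22 encode assembly factors and 1, Atp5if1, encodes an inhibitor of ATP synthase. The study compared 3 libraries titled Trim28, from cells infected with an adenovirus that expresses TRIM28, a corepressor that acts on chromatin with zinc finger proteins, with 3 libraries titled Bgal, whose virus, if any, the labels do not describe. Reads on genes ranged from 26146166 to 28298731 in Trim28 libraries and from 28574951 to 34593292 in Bgal libraries. The labels give no dose, time, strain, age in days or batch, and do not say whether cultures were separate. A p-value here is therefore set by how far libraries of a group lie apart, which may be technical spread. In RNA from a whole culture, fewer cells of a type and less RNA per cell cannot be told apart.

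The respiratory chain sits in the inner mitochondrial membrane. Complexes I and II pass electrons from NADH and succinate to ubiquinone, complex III hands them to cytochrome c, and complex IV gives them to oxygen. Complexes I, III and IV pump protons, and complex V, the ATP synthase, uses the resulting gradient to make ATP. Apart from complex II and cytochrome c, each of these assemblies combines subunits encoded in the nucleus with a smaller set encoded in mitochondrial DNA. The heart draws most of its ATP from this system, and heart and skeletal muscle use their own isoforms of several complex IV subunits.

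Transcripts of the respiratory chain were mostly lower in Trim28 libraries, by modest amounts and in every complex. Levels are in FPKM, which counts fragments per gene scaled by gene length and library total. The FPKM of all 110 members summed to 30270, 30390 and 29950 in Trim28 libraries 1 to 3, against 34110, 36890 and 38390 in Bgal libraries 1 to 3, so the Trim28 mean was 82.8% of the Bgal mean. Every Trim28 sum lay below every Bgal sum. Members took 2.63%, 2.64% and 2.64% of the gene reads in Trim28 libraries, against 3.03%, 3.15% and 3.22% in Bgal libraries.

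Of the 110 members, 104 passed the filter of at least 0.5 FPKM in at least 3 libraries. In limma on log2(FPKM + 1), with adjustment over all 14808 tested genes and a threshold of 0.05, 60 members fell, 3 rose and 41 did not pass. Those that rose numbered 5 without Bgal library 3 and under median-of-ratios or quantile scaling. Over all tested genes, 21.1% fell and 20.1% rose. The median log2 difference of the tested members was -0.21, against -0.02 for all tested genes, and 93 of the 104 lay below 0. All 3 Trim28 libraries were below all 3 Bgal libraries for 70 of the 104, while 27.7% of all tested genes showed that order.

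Members are abundant, and abundant genes were called more often in this comparison. Among the 751 tested genes with a mean of 100 FPKM or more, 40.2% fell and 26.0% rose. Of the 76 members at that level, 48 fell, 1 rose and 27 did not pass. Within the members, the log2 difference was almost unrelated to the mean log2 level (Spearman's rho -0.05 across 104 genes) or to gene length (rho 0.12), which is given as a description across genes that share the same libraries.

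**Figure D1:**
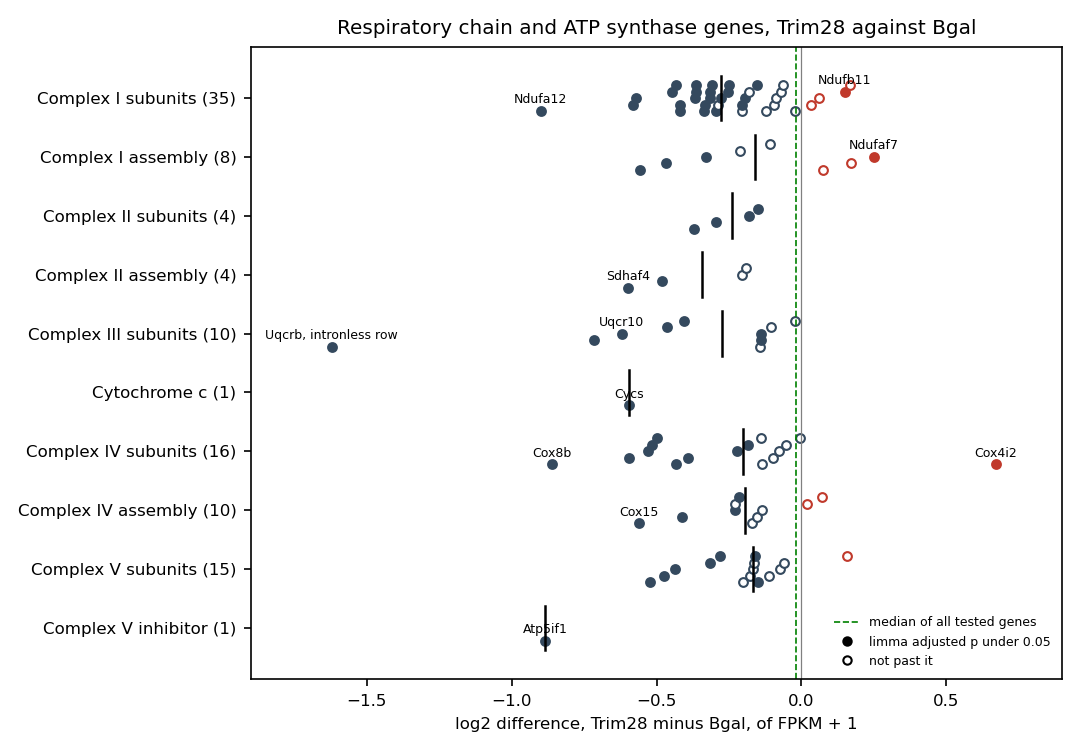
Each point is 1 tested member, placed by its log2 difference of FPKM + 1, Trim28 minus Bgal, in a row for its complex and class, with the number tested in brackets. Filled points passed a limma adjusted p of 0.05, dark points are below 0 and red points above it, black bars are row medians and the dashed line is the median of all tested genes at -0.02; in all 10 rows the median lies left of that line.

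The 6 members outside the test had little or no signal. Ndufa10l1, Cox6c-ps1, Cox7b2 and Cox8c were at 0 in all 6 libraries. Cox7a1 and Ndufa4l2 were below the filter, and Cox7a1 is described with the isoforms.

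The infection itself and the other cells of the culture were read from the same libraries. Trim28 stood at 2923, 2890 and 980 FPKM in Trim28 libraries 1 to 3, against 81.6, 87.8 and 77.6 FPKM in Bgal libraries. The third Trim28 library had the lowest Trim28 level, and its median member deviation from the Bgal mean was -0.24 on the log2 scale, beside -0.23 and -0.21 in the first and second libraries. Among the Bgal libraries the median member deviations were -0.07, 0.01 and 0.06, the first being the lowest.

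Markers of the cultured cell types moved as well. Over all tested genes 20.1% rose and 21.1% fell, and of those with a mean of 100 FPKM or more 26.0% rose and 40.2% fell. All 9 cardiomyocyte markers were expressed, with a summed level of 24640 to 26030 FPKM in Trim28 libraries and 20760 to 23350 FPKM in Bgal libraries. The higher sum came mainly from Actc1 and Nppa. Actc1 averaged 9018 FPKM in Trim28 and 5714 FPKM in Bgal libraries, and Nppa 6368 and 4335 FPKM. The median log2 difference of the 9 was -0.08, and 6 lay below 0. Myh6 and Ryr2 did not pass (-0.08 and -0.07). Of these 9, 3 rose, namely Actc1, Nppa and Actn2 with log2 differences of 0.67, 0.55 and 0.42. The 4 that fell were Myl2, Tnni3, Pln and Tnnt2, with log2 differences of -1.45, -0.72, -0.51 and -0.25. All 9 averaged over 100 FPKM, and the 44.4% that fell is near the 40.2% of all tested genes at that level. Myl2, a ventricular myosin light chain, had 363, 359 and 366 FPKM in Trim28 libraries, against 851, 915 and 1259 FPKM in Bgal libraries, and Actn2, the alpha-actinin of the Z disc, had 1033, 1019 and 1004 FPKM in Trim28 libraries, against 745, 784 and 754 FPKM in Bgal libraries. Of 8 fibroblast markers 7 rose, with sums of 773 to 837 FPKM in Trim28 libraries and 434 to 453 FPKM in Bgal libraries. Of 7 mural cell markers 6 rose, with sums of 1585 to 1684 FPKM in Trim28 libraries and 742 to 996 FPKM in Bgal libraries. Most of these sums was Acta2, which averaged 1342 FPKM in Trim28 and 692.5 FPKM in Bgal libraries. Kcnj8 rose at a very low level, from a mean of 0.403 FPKM in Bgal to 0.935 FPKM in Trim28 libraries. Rgs5, with means of 1.25 FPKM in Trim28 and 0.936 FPKM in Bgal libraries, did not pass. Leukocyte markers rose in 6 of 6 tested, with sums of 64.2 to 65.7 FPKM in Trim28 libraries and 27.1 to 27.5 FPKM in Bgal libraries. Endothelial markers were low, with sums of 8.33 to 9.28 FPKM in Trim28 libraries and 9.73 to 10.55 FPKM in Bgal libraries. Of the 2 tested, Tek rose and Kdr fell, and Cdh5, Emcn and Vwf were below the filter. The part of these other cells in the fall of the respiratory genes was not tested.

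**Figure D2:**
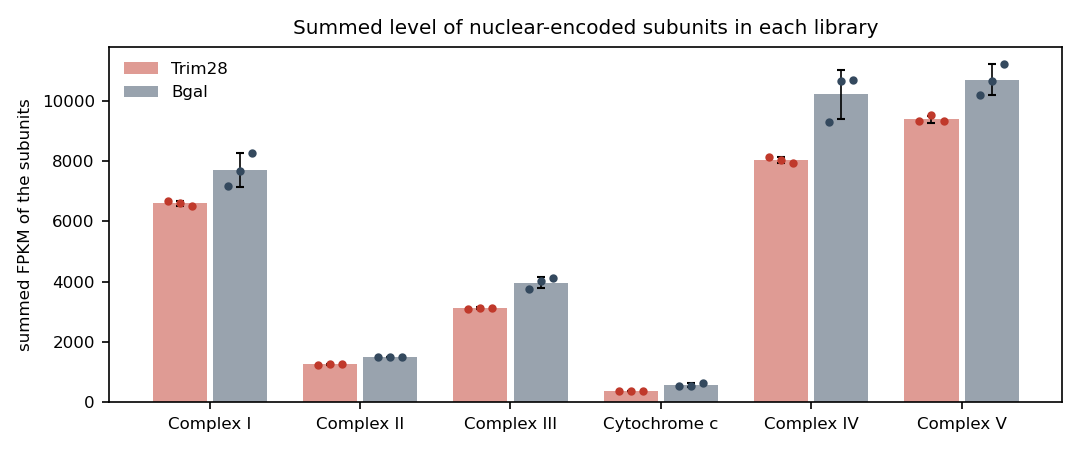
Bars give the mean summed FPKM of the nuclear-encoded structural subunits of each complex (vertical axis, from 0) in Trim28 and Bgal libraries, with SD over 3 libraries as black lines and each library as a point. The Trim28 libraries lie below the Bgal libraries in all 6 groups, and the Bgal libraries spread more in every group but complex II. The complex I sums include Ndufa1, which gave no usable level.

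Complex I, the NADH dehydrogenase and the largest complex of the chain, has 36 structural genes among the members. Of the 35 tested, 22 fell, 1 rose and 12 did not pass, with a median log2 difference of -0.28. The 22 are 62.9%, against 21.1% of all tested genes and 40.2% of those with a mean of 100 FPKM or more. Their FPKM summed to 6663, 6624 and 6517 in Trim28 libraries, against 7160, 7660 and 8280 in Bgal libraries. The 3 Trim28 sums were close together and all lay below the lowest Bgal sum. These sums include Ndufa1, which gave no usable level. It added 152, 1.43 and 127 FPKM in Trim28 libraries and 58.0, 2.26 and 300 FPKM in Bgal libraries. No sum without it was made.

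The 4 complex I genes with the smallest p encode subunits of its peripheral arm or of the joint with the membrane arm. Genes of the membrane arm fell as well. Ndufb3, Ndufb4 and Ndufb6 had log2 differences of -0.57, -0.43 and -0.32 (limma adjusted p = 0.00107, 0.00715 and 0.00926). Ndufb2, Ndufb5, Ndufb7 and Ndufb9 did not pass (-0.07, 0.17, -0.06 and 0.06). These Ndufb genes were named after their values were seen. Ndufs3, a core subunit of the arm that carries the iron-sulfur clusters (ENSRNOG00000009155, chromosome 3, 79721694 to 79728879), had 152, 144 and 150 FPKM in Trim28 libraries, against 202, 205 and 202 FPKM in Bgal libraries. The groups did not overlap, and its log2 difference was -0.45 (95% confidence interval -0.54 to -0.36, limma adjusted p = 0.000203). Ndufs4, an accessory subunit whose loss causes Leigh syndrome in people, had 54.5, 54.4 and 55.0 FPKM in Trim28 libraries, against 75.9, 82.1 and 89.2 FPKM in Bgal libraries (log2 difference -0.58, limma adjusted p = 0.000447). The Trim28 libraries were nearly equal, while the Bgal libraries were spread more widely, and the groups did not overlap.

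Other complex I genes also fell. Ndufv2, which holds an iron-sulfur cluster near the NADH site, averaged 250 ± 3.36 FPKM in Trim28 libraries and 334 ± 14.3 FPKM in Bgal libraries (SD, n = 3 each), and Ndufa9, at the joint of the membrane and peripheral arms, averaged 216 ± 4.24 FPKM in Trim28 libraries and 278 ± 8.62 FPKM in Bgal libraries. Their log2 differences were -0.42 and -0.36, with limma adjusted p of 0.000476 and 0.000608. Ndufa12, an accessory subunit of the peripheral arm, had the largest fall of the complex, with 14.7, 14.6 and 14.4 FPKM in Trim28 libraries, against 23.5, 32.6 and 28.9 FPKM in Bgal libraries (log2 difference -0.90, limma adjusted p = 0.000759). It is also one of the least expressed subunits of complex I. The core subunits Ndufs1, Ndufs8 and Ndufv1 fell by less, with log2 differences of -0.25, -0.21 and -0.20, and Ndufs7, another core subunit, did not pass (0.03, limma adjusted p = 0.671); these 4 were named after their values were seen.

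Ndufb11, an accessory subunit of the membrane arm encoded on the X chromosome, was the 1 complex I subunit of 35 tested that rose. It had 257, 258 and 250 FPKM in Trim28 libraries, against 223, 234 and 232 FPKM in Bgal libraries, with no overlap (log2 difference 0.15, 95% confidence interval 0.06 to 0.24, limma adjusted p = 0.0199). The call was lost in 4 of the 14 alternatives: without an intensity trend (adjusted p = 0.0667), without Trim28 library 1 or 2 (0.0772 and 0.0745) and without Bgal library 1 (0.0591). Ndufa1, also on the X chromosome, gave no usable level. Its values of 152, 1.43 and 127 FPKM in Trim28 libraries and 58.0, 2.26 and 300 FPKM in Bgal libraries jumped within each group, and another row with the same protein description, LOC108348144, took 23.6 FPKM in Bgal library 2 and at most 0.176 FPKM in the others.

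Complex II, succinate dehydrogenase, is shared between the respiratory chain and the citric acid cycle and is encoded wholly in the nucleus. All 4 of its subunits fell, while 40.2% of all tested genes with a mean of 100 FPKM or more did. Sdhd, a membrane anchor, had 285, 294 and 304 FPKM in Trim28 libraries, against 376, 384 and 382 FPKM in Bgal libraries (log2 difference -0.37, limma adjusted p = 0.000567). Sdhb, the iron-sulfur subunit, had 308, 318 and 323 FPKM in Trim28 libraries, against 390, 386 and 388 FPKM in Bgal libraries (-0.29, limma adjusted p = 0.0011). None of these libraries overlapped between groups. Sdhc, the other anchor, averaged 285 ± 5.25 FPKM in Trim28 libraries and 324 ± 7.75 FPKM in Bgal libraries, and Sdha, the flavoprotein that oxidises succinate, 368 ± 3.35 FPKM in Trim28 libraries and 408 ± 4.73 FPKM in Bgal libraries (SD, n = 3 each). Their log2 differences were -0.18 and -0.15, with limma adjusted p of 0.00931 and 0.0148, and the call of Sdha was lost in 3 of the 14 alternatives, among them the one without Trim28 library 1 (limma adjusted p = 0.0631).

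Complex III, the cytochrome bc1 complex, had 10 rows, of which 7 fell, 0 rose and 3 did not pass (median log2 difference -0.27). The 7 are 70.0%, against 21.1% of all tested genes and 40.2% of those with a mean of 100 FPKM or more. The 3 that did not pass had log2 differences between -0.14 and -0.02. Uqcrfs1, the Rieske iron-sulfur protein that takes electrons from ubiquinol, had 386, 379 and 400 FPKM in Trim28 libraries, against 511, 539 and 559 FPKM in Bgal libraries (log2 difference -0.46, limma adjusted p = 0.000463). Uqcr10, a small accessory subunit, had 194, 187 and 172 FPKM in Trim28 libraries, against 274, 285 and 292 FPKM in Bgal libraries (-0.62, limma adjusted p = 0.000211). In both genes the groups stood well apart.

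Uqcrb, a subunit that binds near the ubiquinone site, has 2 rows. The row on chromosome 1 (94718402 to 94718876, plus strand) spans 475 bases, the same as its gene length, so it has no intron. It had 146, 150 and 154 FPKM in Trim28 libraries, against 402, 467 and 530 FPKM in Bgal libraries, the largest fall of any member (log2 difference -1.62, 95% confidence interval -1.84 to -1.40, limma adjusted p = 5.93e-05). The row on chromosome 7, with a gene length of 1029 bases over a wider interval, had 48.6, 49.3 and 51.1 FPKM in Trim28 libraries, against 74.1, 82.2 and 91.1 FPKM in Bgal libraries (-0.72, limma adjusted p = 0.000418). Both rows carry the same symbol and description, so how reads were split between them is uncertain, while both moved in 1 direction. The complex III sum was 78.8% of the Bgal mean with all 10 rows and 85.0% without the row on chromosome 1, a comparison added after the values were seen.

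Cyc1, the cytochrome c1 subunit that passes electrons on, had 610, 618 and 607 FPKM in Trim28 libraries, against 674, 687 and 657 FPKM in Bgal libraries. The groups did not overlap, but the log2 difference was small (-0.14, limma adjusted p = 0.0312) and its call was lost in 10 of the 14 alternatives, with limma adjusted p up to 0.143 under quantile normalization. It was lost without any of the 3 Trim28 libraries (0.108, 0.0877 and 0.0807) and without Bgal library 1 or 2 (0.0597 and 0.079). Cycs, the mobile electron carrier cytochrome c, which also acts in apoptosis once it leaves the mitochondrion, had 387, 374 and 385 FPKM in Trim28 libraries, against 552, 539 and 647 FPKM in Bgal libraries (-0.60, 95% confidence interval -0.76 to -0.43, limma adjusted p = 0.000782). All 3 Trim28 libraries lay below the lowest Bgal library. LOC100363502, a row that shares the description of Cycs and may share reads with it, also fell, to 182, 168 and 164 FPKM in Trim28 libraries, against 234, 214 and 274 FPKM in Bgal libraries.

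**Figure D3:**
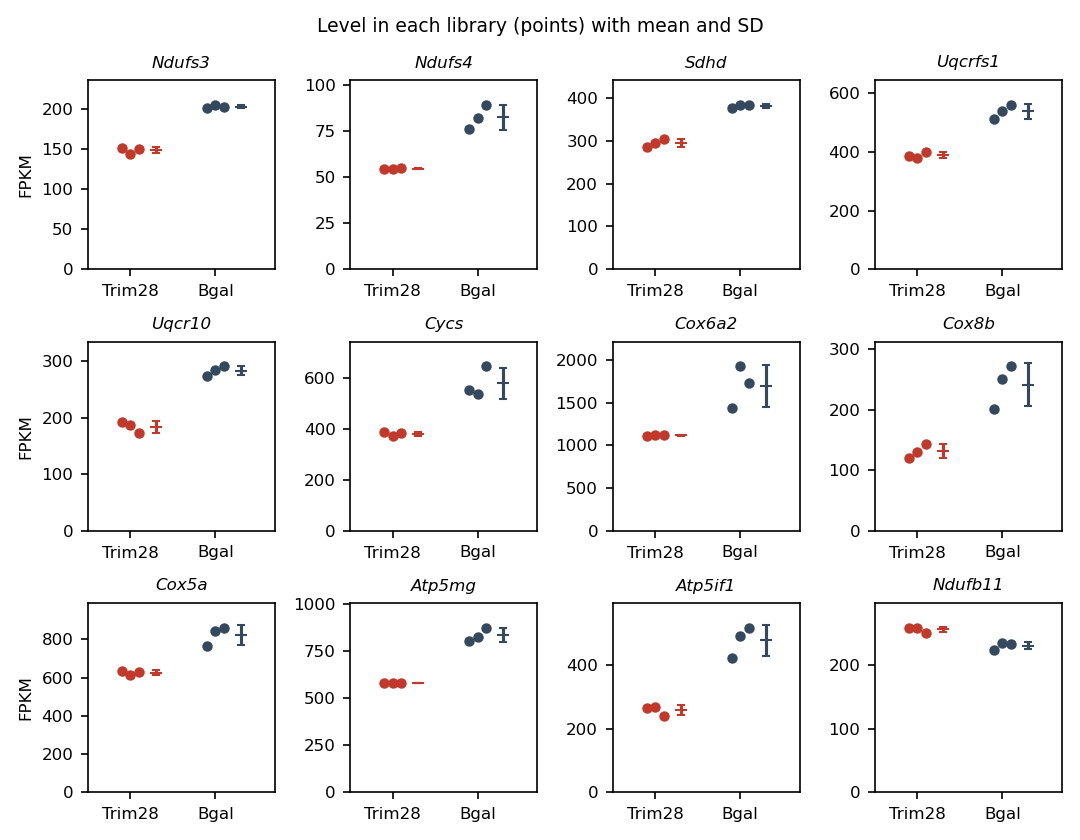
FPKM (vertical axes, from 0) of 12 members in each library, as points for Trim28 on the left and Bgal on the right of each panel, with the mean and SD of 3 libraries beside them. In 11 panels the Trim28 points lie below all Bgal points, and in the panel of Ndufb11 they lie above them.

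Complex IV, cytochrome c oxidase, had 21 structural rows. Of the 16 tested, 9 fell, 1 rose and 6 did not pass (median log2 difference -0.20). The 9 are 56.25%, against 21.1% of all tested genes and 40.2% of those with a mean of 100 FPKM or more. The summed FPKM was 8150, 8026 and 7949 in Trim28 libraries, against 9283, 10650 and 10690 in Bgal libraries. Cox5a, a matrix-side subunit, had 636, 613 and 629 FPKM in Trim28 libraries, against 766, 842 and 861 FPKM in Bgal libraries (log2 difference -0.39, limma adjusted p = 0.00149). Cox6b1, which bridges the monomers of the dimer on the outer side, had 619, 592 and 612 FPKM in Trim28 libraries in its row on chromosome 1, against 814, 882 and 884 FPKM in Bgal libraries (-0.50, limma adjusted p = 0.000393). A second Cox6b1 row on chromosome 2 with the same description averaged 218 ± 8.99 FPKM in Trim28 libraries and 232 ± 37.2 FPKM in Bgal libraries (SD, n = 3 each) and did not pass (-0.08, limma adjusted p = 0.599), and reads may be split between the rows. The row on chromosome 2 spans 261 bases, the same as its gene length, so it has no intron. That on chromosome 1 has a gene length of 601 bases over a wider interval.

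Several complex IV subunits exist as a muscle isoform and a ubiquitous one, and in the pairs of Cox6a and Cox8 the muscle form had the larger log2 difference. Cox6a2, the heart and skeletal muscle form, had 1110, 1116 and 1120 FPKM in Trim28 libraries, against 1438, 1925 and 1727 FPKM in Bgal libraries (log2 difference -0.59, 95% confidence interval -0.83 to -0.36, limma adjusted p = 0.00315). Cox6a1, its ubiquitous counterpart, had 1182, 1167 and 1089 FPKM in Trim28 libraries, against 1156, 1293 and 1232 FPKM in Bgal libraries, and missed the threshold (-0.10, limma adjusted p = 0.239, with a 95% confidence interval of -0.24 to 0.04). The ratio of Cox6a2 to Cox6a1 was 0.939, 0.957 and 1.03 in Trim28 libraries, against 1.24, 1.49 and 1.40 in Bgal libraries. The ratios did not overlap, and the log2 ratio differed by -0.50 (two-sided exact permutation p = 0.1, the smallest that 3 against 3 libraries can give, or 0.133 adjusted over the 4 pairs tested).

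Cox8b, the muscle form of the smallest subunit, had 121, 130 and 144 FPKM in Trim28 libraries, against 202, 250 and 272 FPKM in Bgal libraries (log2 difference -0.86, limma adjusted p = 0.0011). Cox8a, the ubiquitous form, fell too, with 624, 613 and 592 FPKM in Trim28 libraries, against 822, 913 and 883 FPKM in Bgal libraries (-0.52, limma adjusted p = 0.000439). The ratio of Cox8b to Cox8a was 0.194, 0.212 and 0.244 in Trim28 libraries, against 0.246, 0.274 and 0.308 in Bgal libraries. The highest Trim28 ratio, in library 3, nearly met the lowest Bgal ratio, in library 1, and the log2 ratio differed by -0.35 (exact permutation p = 0.1, adjusted 0.133).

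Cox4i2, an isoform of Cox4i1 that is induced by low oxygen and prominent in lung, was the 1 complex IV subunit of 16 tested that rose, at a very low level. It had 2.82, 2.85 and 2.11 FPKM in Trim28 libraries, against 0.826, 1.44 and 1.54 FPKM in Bgal libraries (log2 difference 0.67, limma adjusted p = 0.0129), from 83, 79 and 64 reads in Trim28 libraries and 31, 44 and 56 reads in Bgal libraries. Cox4i1, the main form, averaged 900 ± 12.0 FPKM in Trim28 libraries and 1050 ± 56.7 FPKM in Bgal libraries (SD, n = 3 each; -0.22, limma adjusted p = 0.0138). The log2 ratio of Cox4i2 to Cox4i1 differed by 1.29 without overlap (exact permutation p = 0.1, adjusted 0.133), with ratios of 0.00312, 0.00314 and 0.00239 in Trim28 libraries, against 0.000837, 0.00131 and 0.00145 in Bgal libraries.

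Of the remaining pairs, only Cox6b2 and Cox6b1 were both above the filter in every library, and the other two ratios were not tested. Cox6b2, the testis form, was at 1.24 to 3.44 FPKM in all libraries, and its log2 ratio to the Cox6b1 row on chromosome 1 differed by 0.32 (exact permutation p = 0.6). Cox7a2, the ubiquitous form of its subunit, had 419, 402 and 393 FPKM in Trim28 libraries, against 390, 400 and 429 FPKM in Bgal libraries (log2 difference 0.00, 95% confidence interval -0.12 to 0.12, limma adjusted p = 0.953). Cox7a1, its heart and muscle partner, was at 0.216, 0.102 and 0.140 FPKM in Trim28 libraries, against 2.32, 0.231 and 0.136 FPKM in Bgal libraries, so it was near 0 in all but 1 library. LOC687508, a row with the same description, reached 5.49 FPKM in Trim28 library 2 and 12.1 FPKM in Bgal library 3, and the sum of the rows is uncertain. Ndufa4, now counted with complex IV, averaged 281 ± 5.54 FPKM in Trim28 libraries and 310 ± 23.4 FPKM in Bgal libraries (SD, n = 3 each; -0.14, limma adjusted p = 0.0955), and its paralog Ndufa4l2 was at most 0.146 FPKM throughout.

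**Figure D4:**
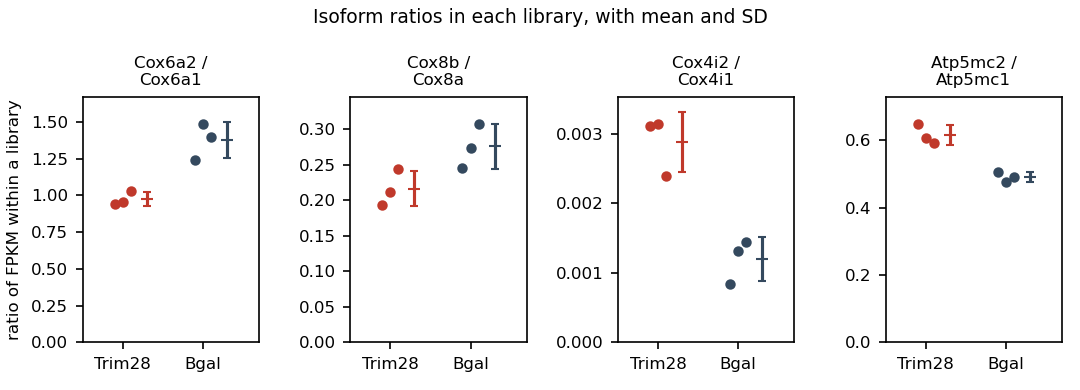
Ratio of the FPKM of the first gene to that of the second (vertical axes, from 0) in each library, with mean and SD, Trim28 left and Bgal right. Both muscle forms, Cox6a2 and Cox8b, took a smaller share in Trim28 libraries, while Cox4i2 against Cox4i1 and Atp5mc2 against Atp5mc1 lay higher, the last pair having been chosen after its values were seen.

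In complex V, the ATP synthase, 7 of 15 structural genes fell, 0 rose and 8 did not pass, with a median log2 difference of -0.17. All but Atp5pb averaged over 100 FPKM, and the 46.7% that fell is near the 40.2% of all tested genes at that level. The 4 genes with the smallest p encode parts of the stalk and of the membrane portion. Atp5mg, subunit g of the membrane part, had 580, 578 and 579 FPKM in Trim28 libraries, against 801, 824 and 873 FPKM in Bgal libraries (log2 difference -0.52, limma adjusted p = 0.000244). Atp5pd, of the peripheral stalk, averaged 360 ± 9.18 FPKM in Trim28 libraries and 501 ± 31.0 FPKM in Bgal libraries, and Atp5mf, subunit f, 479 ± 18.7 FPKM in Trim28 libraries and 649 ± 43.8 FPKM in Bgal libraries (SD, n = 3 each). Their log2 differences were -0.48 and -0.44, with limma adjusted p of 0.00065 and 0.00138. Atp5po, which joins the stalk to the catalytic head, fell as well (-0.28, limma adjusted p = 0.00304).

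Subunits of each portion also changed little or missed the threshold. Atp5pf of the peripheral stalk and Atp5me of the membrane part had log2 differences of -0.18 and -0.20 (limma adjusted p = 0.0885 and 0.145). Of the catalytic head, Atp5f1b, the catalytic beta subunit and the most abundant member, had 2371, 2423 and 2393 FPKM in Trim28 libraries, against 2504, 2487 and 2577 FPKM in Bgal libraries. These values do not overlap, but the log2 difference was -0.07 (limma adjusted p = 0.282, with a 95% confidence interval of -0.19 to 0.05) and missed the threshold. Atp5f1a, the alpha subunit, fell by 0.15 on the log2 scale (limma adjusted p = 0.0298). Atp5f1e, the epsilon subunit of the central stalk, fell by 0.31 (limma adjusted p = 0.00762), more than Atp5po. The genes named in this paragraph, and the Atp5mc genes in the next, were chosen after their values were seen.

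Atp5mc1, Atp5mc2 and Atp5mc3 encode the same mature c subunit of the proton-driven ring, with different import sequences. Atp5mc2 had 466, 477 and 424 FPKM in Trim28 libraries, against 394, 403 and 427 FPKM in Bgal libraries, and Atp5mc1 had 718, 785 and 718 FPKM in Trim28 libraries, against 778, 848 and 871 FPKM in Bgal libraries. Neither passed (log2 differences 0.16 and -0.17, limma adjusted p = 0.0645 and 0.0654), and each overlapped between groups. Their ratio did not overlap, at 0.650, 0.607 and 0.591 in Trim28 libraries, against 0.506, 0.476 and 0.490 in Bgal libraries (log2 ratio difference 0.33, exact permutation p = 0.1, the smallest possible). Atp5mc3 averaged 870 FPKM in Trim28 and 940 FPKM in Bgal libraries and did not pass (log2 difference -0.11, limma adjusted p = 0.166). The ratio of Atp5mc2 to Atp5mc3 averaged 0.524 in Trim28 and 0.434 in Bgal libraries, without overlap (log2 ratio difference 0.27, exact permutation p = 0.1).

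Atp5if1 encodes IF1, which binds the catalytic head and blocks ATP hydrolysis when the proton gradient collapses. Its log2 difference was larger than that of any ATP synthase subunit, with 265, 269 and 240 FPKM in Trim28 libraries, against 423, 493 and 518 FPKM in Bgal libraries. The groups stood far apart (log2 difference -0.88, 95% confidence interval -1.08 to -0.69, limma adjusted p = 0.000287), and the Bgal mean was 1.85-fold that of Trim28. Atp5pb, of the peripheral stalk, was listed at only 1.72 to 3.08 FPKM, while LOC100911417, a row with the same description, ranged from 1.06 to 63.5 FPKM across libraries, so its level is uncertain.

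Assembly factors help build the complexes, and most are not part of the finished enzymes. Cox7a2l, a link between complexes III and IV, is counted with them here. Of 22, 9 fell, 1 rose and 12 did not pass, with a median log2 difference of -0.21, close to that of the subunits at -0.22. The 9 are 40.9%, against 21.1% of all tested genes. By complex, 3 of 8 fell for complex I, 2 of 4 for complex II and 4 of 10 for complex IV, and the difference between assembly factors and subunits was not tested. Without the filter on low values 5 of the assembly factors and 44 of the structural subunits fell, against 9 and 50 with it. Over all tested genes, 2726 of 23443 fell without the filter, against 3126 of 14808 with it.

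Among complex I factors, Ndufaf8 had 25.9, 28.3 and 23.8 FPKM in Trim28 libraries, against 36.1, 42.1 and 37.7 FPKM in Bgal libraries (log2 difference -0.56, limma adjusted p = 0.0016), and Ndufaf1, which helps build the membrane arm, averaged 15.9 ± 0.709 FPKM in Trim28 libraries and 22.4 ± 1.29 FPKM in Bgal libraries (SD, n = 3 each; -0.47, limma adjusted p = 0.00111). Ndufaf7, a mitochondrial methyltransferase, rose, with 18.5, 17.5 and 17.1 FPKM in Trim28 libraries, against 15.1, 14.4 and 14.6 FPKM in Bgal libraries (0.25, limma adjusted p = 0.00873). None of these 3 genes overlapped between groups.

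Sdhaf4 and Sdhaf3, which assist the flavoprotein and the iron-sulfur subunit of complex II, fell with wide spread. Sdhaf4 had 24.5, 17.7 and 26.6 FPKM in Trim28 libraries, against 29.9, 34.5 and 40.3 FPKM in Bgal libraries (log2 difference -0.60, limma adjusted p = 0.0209). Sdhaf3 had 9.49, 9.79 and 13.8 FPKM in Trim28 libraries, against 15.6, 13.4 and 18.0 FPKM in Bgal libraries, which overlap (-0.48, limma adjusted p = 0.0392). The call of Sdhaf4 was lost in 3 of the 14 alternatives, among them those without Bgal library 2 or 3 (limma adjusted p = 0.0536 and 0.066). That of Sdhaf3 was lost in 6, among them those without Trim28 library 1 or 2 (both 0.115) and without Bgal library 1 or 3 (0.0925 and 0.119). For complex IV, Cox15, which makes heme A, had 5.45, 4.26 and 4.75 FPKM in Trim28 libraries, against 7.21, 8.01 and 7.47 FPKM in Bgal libraries (-0.56, limma adjusted p = 0.00305). Cox7a2l, which links complexes III and IV into supercomplexes, averaged 116 ± 3.46 FPKM in Trim28 libraries and 136 ± 4.21 FPKM in Bgal libraries (SD, n = 3 each; -0.23, limma adjusted p = 0.00482).

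Assembly genes whose symbols lie outside the rule were read from a list of 35, of which 31 were found and tested. Of these, 18 fell, 0 rose and 13 did not pass, and 29 of the 31 lay below 0 (median log2 difference -0.30). The 18 are 58.1%, against 21.1% of all tested genes. Higd2a, which helps assemble complex IV and supercomplexes, had 73.6, 77.2 and 67.5 FPKM in Trim28 libraries, against 129, 143 and 143 FPKM in Bgal libraries (log2 difference -0.92, limma adjusted p = 0.000105). Atpaf2, a chaperone of the alpha subunit of ATP synthase, had 11.1, 12.3 and 13.4 FPKM in Trim28 libraries, against 22.9, 21.1 and 22.7 FPKM in Bgal libraries (-0.81, limma adjusted p = 0.000269). Both stood apart without overlap. Higd1a, a relative of Higd2a that is induced by low oxygen, fell by 0.55 on the log2 scale (limma adjusted p = 0.000171).

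Of 17 genes that make ubiquinone or feed electrons into it beside the complexes, 10 fell, 2 rose and 5 did not pass (median log2 difference -0.24). The 10 are 58.8%, against 21.1% of all tested genes. Etfa, of the flavoprotein that brings electrons from fatty acid oxidation, had 118, 121 and 125 FPKM in Trim28 libraries, against 158, 152 and 163 FPKM in Bgal libraries (-0.37, limma adjusted p = 0.00067). Coq9 and Coq7, which act together in ubiquinone synthesis, fell by 0.37 and 0.64 on the log2 scale (limma adjusted p = 0.000741 and 0.00131). Sqor, which oxidises hydrogen sulfide, and Pdss1, which makes the ubiquinone side chain, were the 2 that rose, by log2 differences of 0.46 and 0.23, and are named after their values were seen.

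The 13 subunits encoded in mitochondrial DNA were not members, and moved less evenly. Of these, 9 fell, 1 rose and 3 did not pass, with a median log2 difference of -0.56. The 9 are 69.2%, while 40.2% of all tested genes with a mean of 100 FPKM or more fell and 26.0% rose. ND1 had 3658, 3605 and 3873 FPKM in Trim28 libraries, against 6355, 6362 and 7319 FPKM in Bgal libraries (-0.84, limma adjusted p = 0.000299). ND2 fell by the same 0.84 (limma adjusted p = 0.000264). COX1, the catalytic subunit of complex IV, rose, with 20550, 20320 and 18930 FPKM in Trim28 libraries, against 14840, 14550 and 16320 FPKM in Bgal libraries (0.39, limma adjusted p = 0.0138). ATP8 had 28.5, 27.7 and 27.3 FPKM in Trim28 libraries, against 321, 280 and 403 FPKM in Bgal libraries (-3.53, limma adjusted p = 1.42e-05), but its gene overlaps ATP6, as ND4L overlaps ND4, so reads of these genes cannot be assigned with certainty. These transcripts together summed to 58640 to 60100 FPKM in Trim28 libraries and 70430 to 82590 FPKM in Bgal libraries.

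**Figure D5:**
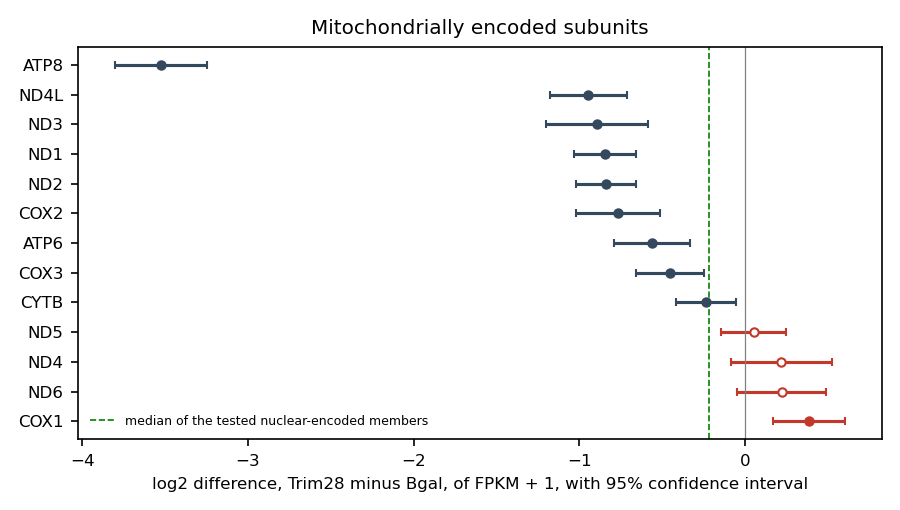
Log2 difference of FPKM + 1, Trim28 minus Bgal (horizontal axis), with 95% confidence intervals, of the 13 subunits encoded in mitochondrial DNA, filled where the limma adjusted p was under 0.05. ATP8 lies at -3.53, 8 others fell by less, COX1 lies above 0, and the dashed line marks the median of the nuclear-encoded members at -0.21.

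Transcription of nuclear respiratory genes is known to be driven by NRF1, GABPA of the ETS family, YY1 and the estrogen-related receptors, with PGC-1 coactivators. Of 20 such regulators and genes of mitochondrial DNA expression, 6 fell, 2 rose and 12 did not pass (median log2 difference -0.03). The 6 are 30.0% of the list, against 21.1% of all tested genes. Esrrg, an estrogen-related receptor of heart and other oxidative tissue, had 23.0, 24.7 and 24.4 FPKM in Trim28 libraries, against 42.8, 40.6 and 44.2 FPKM in Bgal libraries (-0.80, 95% confidence interval -0.92 to -0.67, limma adjusted p = 8.71e-05). Ppara, a nuclear receptor that drives fatty acid oxidation, had 7.93, 8.09 and 9.59 FPKM in Trim28 libraries, against 13.2, 12.8 and 13.3 FPKM in Bgal libraries (-0.57, limma adjusted p = 0.0014), and Twnk, the mitochondrial DNA helicase, fell by 0.34 on the log2 scale (limma adjusted p = 0.00623). Gabpa fell by 0.25 on the log2 scale (limma adjusted p = 0.0429). Tfam and Mterf3, of mitochondrial DNA expression, had log2 differences of -0.28 and -0.32 (limma adjusted p = 0.0178 and 0.0412). Esrrb, another estrogen-related receptor, and Pprc1, a PGC-1 relative, were the 2 that rose, by log2 differences of 0.39 and 0.22 (limma adjusted p = 0.0119 and 0.0326). Ppargc1a, Esrra and Nrf1 did not pass, with log2 differences of 0.08, -0.04 and -0.01 (limma adjusted p = 0.42, 0.737 and 0.957). Gabpa and the genes that follow it in this paragraph were named after their values were seen.

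Promoters of the members were read from RefSeq on the rat assembly GRCr8, as 250 bases before to 50 bases after the annotated start, and 94 of 108 symbols matched. Motifs were searched on both strands as exact letters: GCATGCG for NRF1, CCGGAAG for ETS factors including GABPA, AAGATGG for YY1 and AAGGTCA for estrogen-related receptors. The NRF1 letters can match both strands of 1 palindrome in overlap, which counts as 1 promoter. At least 1 motif was found in 56 of the 94 and none in 38. Promoters of tested genes were those matched by symbol, 9399 in number. The NRF1 letters were in 16.0% of member promoters, against 6.38% of these 9399, and the ETS letters in 30.9%, against 17.9%. The YY1 letters were in 21.3%, against 8.29%, and the receptor letters in 11.7%, against 2.65%. Over all 27457 promoters of the table the shares were 3.54%, 9.22%, 7.30% and 4.37% in that order of motifs.

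The median log2 difference was -0.21 in 14 tested members with the NRF1 letters and -0.23 in 75 without. For ETS letters it was -0.23 in 29 with and -0.22 in 60 without, and for YY1 letters -0.29 in 18 and -0.22 in 71. For the receptor letters it was -0.36 in 11 with and -0.22 in 78 without. These medians are given as a description and no test was made.

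The 250 bases before the start of 5 genes are printed because they show both kinds of promoter among genes that fell: Cycs with an NRF1 palindrome, Atp5mg with NRF1, ETS and receptor letters, Cox8a with ETS letters, and the muscle isoforms Cox6a2 and Cox8b with none of the 4 motifs in the window. Capitals mark the motif letters, the last 3 capitals of Cox8a being the part of a YY1 match that runs on past the start. All lie on the minus strand of GRCr8 and read 5′ to 3′ toward the start, at chr4:80984768-80985017 for Cycs, chr8:54130408-54130657 for Atp5mg, chr1:213833624-213833873 for Cox8a, chr1:192219717-192219966 for Cox6a2 and chr1:205408274-205408523 for Cox8b.
Cycs: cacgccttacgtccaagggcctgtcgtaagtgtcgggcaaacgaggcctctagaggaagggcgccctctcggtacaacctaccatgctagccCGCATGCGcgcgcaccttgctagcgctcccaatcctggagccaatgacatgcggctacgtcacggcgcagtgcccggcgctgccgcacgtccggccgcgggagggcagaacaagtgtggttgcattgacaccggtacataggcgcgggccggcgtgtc
Atp5mg: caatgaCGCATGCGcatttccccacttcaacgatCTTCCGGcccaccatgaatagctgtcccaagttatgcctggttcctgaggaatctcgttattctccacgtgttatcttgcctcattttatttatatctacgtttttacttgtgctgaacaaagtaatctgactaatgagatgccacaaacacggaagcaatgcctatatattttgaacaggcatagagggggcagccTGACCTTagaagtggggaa
Cox8a: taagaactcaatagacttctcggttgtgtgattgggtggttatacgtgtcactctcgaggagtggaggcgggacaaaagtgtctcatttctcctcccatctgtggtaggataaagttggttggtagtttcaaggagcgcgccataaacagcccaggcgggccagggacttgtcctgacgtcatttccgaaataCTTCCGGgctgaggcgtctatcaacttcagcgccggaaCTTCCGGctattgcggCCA
Cox6a2: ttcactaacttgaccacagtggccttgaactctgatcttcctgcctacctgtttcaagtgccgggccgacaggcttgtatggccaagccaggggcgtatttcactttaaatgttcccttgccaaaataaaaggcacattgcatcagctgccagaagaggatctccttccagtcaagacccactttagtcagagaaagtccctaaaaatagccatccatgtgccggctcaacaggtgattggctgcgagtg
Cox8b: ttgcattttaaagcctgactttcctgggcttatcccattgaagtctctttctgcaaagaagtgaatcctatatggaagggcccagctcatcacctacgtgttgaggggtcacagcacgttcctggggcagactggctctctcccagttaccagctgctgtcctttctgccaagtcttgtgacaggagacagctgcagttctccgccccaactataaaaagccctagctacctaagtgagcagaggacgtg
The 5 genes were picked from those that fell, so their falls say nothing about the motifs. A missing match says only that these letters are not in the window.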

How the data were processed

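Poly(A) RNA of 6 libraries was sequenced in pairs after strand marking, per the labels' protocols. The deposited table gives FPKM per gene and library, per the file headers, and the authors used HISAT2 2.0.5 and DESeq2, per the submitters' processing notes. Neither genome build nor annotation release, counter or use of strand is given in the sources used here, and coordinates of genes are those of the deposited table. FPKM divides by gene length and library total, so rows with near-identical sequence can split reads. FPKM times gene length gave whole reads for 100% of values within 0.01, with library totals of 26146166 to 34593292 reads; 1 read on 1 kilobase was worth 0.0281 to 0.0381 FPKM.

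The 14808 genes that reached 0.5 FPKM in 3 or more libraries were tested as log2(FPKM + 1) by limma 3.58.1 (R 4.3.3), two-sided, the moderated variance following an intensity trend, with Benjamini-Hochberg adjustment over all of them and a threshold of 0.05. Log2 differences are Trim28 minus Bgal and understate the change of low genes. Isoform ratios were compared by exact permutation. The procedure was run on simulated data with the same set dispersion for every gene and few changed genes. That setting was not fitted to these libraries, so it does not measure the error rate here. Alternatives were another pseudocount, other filters, median-of-ratios and quantile scaling, limma-voom on the recovered reads, no trend, a replicate block and leaving out each library.

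Named genes were the Sdh genes, Cyc1, Cycs and the isoform pairs, then by complex the 4 structural genes and 2 assembly factors with the smallest p, the 5 largest changes each way among members past the threshold, and up to 3 genes of each further list. Members, lists and pairs were chosen with earlier results of these data known. Endothelial marker Pecam1 and 4 of 35 assembly genes were not matched by symbol and were not analysed here.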

Additional observations from a re-analysis of the deposited data

How the results depend on the processing

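Of 544 values of named genes under the alternatives, 511 kept their direction and their side of the threshold, 26 kept the direction but no longer passed and 1 (Ndufa4 in limma-voom) newly passed. The other 6 changed sign without passing in either setting. Cox7a2, at 0.00 as reported, was at 0.0177 under median-of-ratios scaling and 0.0258 under quantile normalization, and lay between -0.0334 and 0.0357 when a library was left out, above 0 without Trim28 library 3 and without Bgal library 3. Cox6b2, at -0.14 as reported, lay between -0.38 and 0.11 when a library was left out, above 0 without Trim28 library 3 and without Bgal library 2. Members that fell numbered 60, and ranged from 50 without a filter to 71 in limma-voom, run on reads recovered from FPKM, which called 3431 genes lower and 3076 higher in all. The median member difference stayed between -0.26 and -0.20. Members that rose, 3 as reported, numbered 5 under median-of-ratios scaling and under quantile normalization, and 2 to 5 when a library was left out. Structural subunits that rose, 2 as reported, numbered 1 with a filter of 5 FPKM and with no intensity trend, 4 under both scalings, and 1 to 4 when a library was left out. Assembly factors that fell numbered 9, and 5 with no filter, where 2726 of all 23443 tested genes fell, against 3126 of 14808 as reported. The cause was not tested. Leaving out members whose protein description is shared with another row gave 59.7% falling, against 57.7%, an alternative added after the values were seen. No setting moved the median of all tested genes beyond -0.04 to 0.01. The log2 ratio of Cox6b2 to Cox6b1 lay between -0.0836 and 0.66 when a library was left out, below 0 without Bgal library 3. With a replicate block, 55 members fell and 3 rose. Deviations of each tested gene from its group mean correlated at -0.02, 0.13 and 0.01 between same-numbered Trim28 and Bgal libraries. Between libraries of different number these correlations ran from -0.09 to 0.08. The numbers were therefore not taken to pair the libraries. At 3 against 3 libraries no exact permutation p can fall below 0.1.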

Other observations

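Some rows outside the rule share the protein description of a member. Of 22 such tested rows, 6 rose, 3 fell and 13 did not pass, against 20.1% and 21.1% of all tested genes that rose and fell. The table classes 7 of them as pseudogenes, of which 2 rose and 0 fell, and 12 as protein coding. The rows named here were chosen after their values were seen. AABR07015346.1, a processed pseudogene with the description of Cox7a2, had 86.9, 92.9 and 68.5 FPKM in Trim28 libraries, against 22.3, 20.5 and 23.9 FPKM in Bgal libraries (log2 difference 1.84, limma adjusted p = 7.87e-05), while Cox7a2 itself had a difference of 0.00. LOC100361008, a processed pseudogene with the description of Cox5a, had 85.7, 90.4 and 85.1 FPKM in Trim28 libraries, against 49.2, 54.1 and 62.6 FPKM in Bgal libraries (0.65, limma adjusted p = 0.000978), while Cox5a fell by 0.39.

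LOC100363268, with the description of the complex I subunit Ndufs5, had 41.3, 49.6 and 42.4 FPKM in Trim28 libraries, against 19.9, 18.9 and 20.6 FPKM in Bgal libraries (log2 difference 1.13, limma adjusted p = 9.62e-05). Ndufs5 itself moved the other way, with 157, 163 and 159 FPKM in Trim28 libraries, against 178, 216 and 225 FPKM in Bgal libraries (-0.36, limma adjusted p = 0.0123). The 3 rows that fell were LOC684509, AABR07009978.1 and LOC100363502, with the descriptions of Ndufa3, Ndufb5 and Cycs and log2 differences of -1.72, -0.58 and -0.48 (limma adjusted p = 0.00273, 0.00918 and 0.00509). LOC684509 had 8.71, 15.1 and 6.15 FPKM in Trim28 libraries, against 26.6, 38.5 and 35.95 FPKM in Bgal libraries. In these 6 named rows the groups did not overlap. How the deposited counting shared reads between such rows and their parent genes was not tested.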
